A study of Homo sapiens with 2 samples.

Results

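The kinesin motor genes are the protein-coding genes whose names are KIF or KIFC followed by a number and, in some, a letter. Of the 58735 genes in the count tables, 42 met that rule. A further gene, KIF28P, matched the name pattern but is annotated as a transcribed pseudogene and was left out. Expression was measured by RNA sequencing in BHT101, a human line of anaplastic thyroid carcinoma. Going by the labels, 1 library was made from BHT101 control cells and 1 from BHT101 cells with SETDB2 overexpression, SETDB2 being a member of a family of histone H3 lysine 9 methyltransferases. The cells of both groups were grown in DMEM with fetal bovine serum and sodium pyruvate, and the labels name neither the vector, nor the time, nor whether 1 clone was used. With 1 library per group there was no spread between cultures to estimate, so no test was made, and every interval below is a 95% interval of counting error alone.

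Kinesins are motor proteins that use ATP to walk along microtubules or to take microtubule ends apart. Some work in dividing cells, where they build the spindle, align chromosomes and complete cytokinesis, and their genes are transcribed mostly in G2 and mitosis. Others carry vesicles, organelles and protein complexes in cells of any cycle stage, and many of these were first studied in neurons. The 42 genes were set in 3 classes by textbook roles, 14 mitotic, 15 transport, and 13 other kinesins of cilia, centrioles and microtubule growth. The class and partner lists were written with earlier results of these data known.

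Counts summed to 33572025 (control) and 34053348 (SETDB2). SETDB2 itself had 507 counts in control cells and 1370 in the library labelled as overexpressing it. Keratins of simple epithelium were abundant in both libraries (KRT8 at 141 and 146 FPKM), whereas the thyroid markers were nearly silent, with PAX8 at 42 and 30 counts, thyroglobulin (TG) at 6 and 2, and NKX2-1 at 0. The other epithelial markers were lower than the keratins, with EPCAM at 5.8 and 6.4 FPKM and CDH1 at 0.58 and 0.47 FPKM (121 and 98 counts). The leukocyte marker PTPRC had 3 and 0 counts and the fibroblast marker PDGFRB 17 and 12. The endothelial marker PECAM1 had 110 and 74 counts, more than PAX8.

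The promoters of the mitotic class shared short sequences that the rule for choosing members did not use. The cell cycle genes homology region (CHR), at which repressor and activator complexes of cell cycle genes bind, was searched as TTTGAA or TTCGAA. The CCAAT box, the site of the factor NF-Y, was searched as CCAAT. Both were looked for on both strands in windows from 250 bases before to 50 bases after the RefSeq gene start (GRCh38.p14), and 0 matches of one motif overlapped the other in the kinesin windows. RefSeq windows were found for 34 of the 42 genes. Where a gene had several listed starts, the first was used. KIF13B, KIFC2, KIF5A, KIFC3, KIF19, KIF21B, KIF26B and KIF27 were not matched.

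CHR letters were found in 11 of 14 mitotic promoters (78.57%), in 1 of 11 transport promoters (9.09%) and in 1 of 9 others (11.11%). Of all 27305 promoters in the table, 16.62% held them. CHR and CCAAT letters together stood in 10 of 14 mitotic promoters, in 1 of 11 transport promoters and in 1 of 9 others, against 6.58% of all promoters. The mitotic promoters without CHR letters were those of KIF2B, KIF2C and KIF20A, and the window of KIF20A held a pair of CCAAT boxes. A match in letters describes the window and does not show binding.

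The sequences below show the spacing of both motifs in the mitotic members with the 3 highest ratios and the lowest ratio between the libraries, and in KIF5B, the transport gene whose window held both motifs. Each is the 250 bases before the RefSeq gene start, read 5′ to 3′ on the gene's own strand, with capitals marking the CHR and CCAAT letters of either strand.
KIF23 promoter, chr15:69414099-69414348, plus strand: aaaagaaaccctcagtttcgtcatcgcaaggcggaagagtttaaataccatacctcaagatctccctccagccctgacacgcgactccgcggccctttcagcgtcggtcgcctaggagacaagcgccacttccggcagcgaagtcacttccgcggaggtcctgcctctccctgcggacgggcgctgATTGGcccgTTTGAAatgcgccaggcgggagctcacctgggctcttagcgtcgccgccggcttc
KIF18A promoter, chr11:28108157-28108406, minus strand: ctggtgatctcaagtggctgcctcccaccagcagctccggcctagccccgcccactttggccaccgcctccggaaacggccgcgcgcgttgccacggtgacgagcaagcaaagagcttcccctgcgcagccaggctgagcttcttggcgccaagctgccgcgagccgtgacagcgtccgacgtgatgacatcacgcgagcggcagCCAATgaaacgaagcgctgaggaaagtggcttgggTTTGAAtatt
KIF4A promoter, chrX:70289854-70290103, plus strand: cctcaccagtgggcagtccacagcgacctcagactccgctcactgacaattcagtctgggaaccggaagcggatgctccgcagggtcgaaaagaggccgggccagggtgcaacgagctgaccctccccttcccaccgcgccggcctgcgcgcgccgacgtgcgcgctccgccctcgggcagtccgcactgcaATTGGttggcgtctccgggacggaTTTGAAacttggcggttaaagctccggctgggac
KIF22 promoter, chr16:29790501-29790750, plus strand: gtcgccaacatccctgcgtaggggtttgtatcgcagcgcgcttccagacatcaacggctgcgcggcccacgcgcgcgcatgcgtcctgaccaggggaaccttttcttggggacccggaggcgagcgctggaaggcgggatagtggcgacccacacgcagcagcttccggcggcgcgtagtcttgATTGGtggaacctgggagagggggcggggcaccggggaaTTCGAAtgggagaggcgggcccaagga
KIF5B promoter, chr10:32056426-32056675, minus strand: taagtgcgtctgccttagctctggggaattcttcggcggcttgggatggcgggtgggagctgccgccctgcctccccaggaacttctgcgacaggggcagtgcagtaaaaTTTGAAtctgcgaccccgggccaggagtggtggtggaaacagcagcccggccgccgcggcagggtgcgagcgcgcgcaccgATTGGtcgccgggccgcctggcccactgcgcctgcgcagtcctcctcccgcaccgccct
In KIF23 the CHR letters began at position -55 and the CCAAT letters at -64, counted from the base before the gene start as -1. They began at -10 and -45 in KIF18A, at -34 and -58 in KIF4A, and at -27 and -66 in KIF22. In these 4 mitotic windows the CCAAT letters came before the CHR letters. In KIF5B the order was the reverse, with CHR letters at -140 and CCAAT letters at -59. KIF24, the centriole kinesin, was the member of the third class with CHR letters, at position 2 after the start. Its window also held CCAAT letters at -154, -100 and -47, and its log2 ratio between the libraries was -0.14 (interval -0.28 to 0.01).

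**Figure D1:**
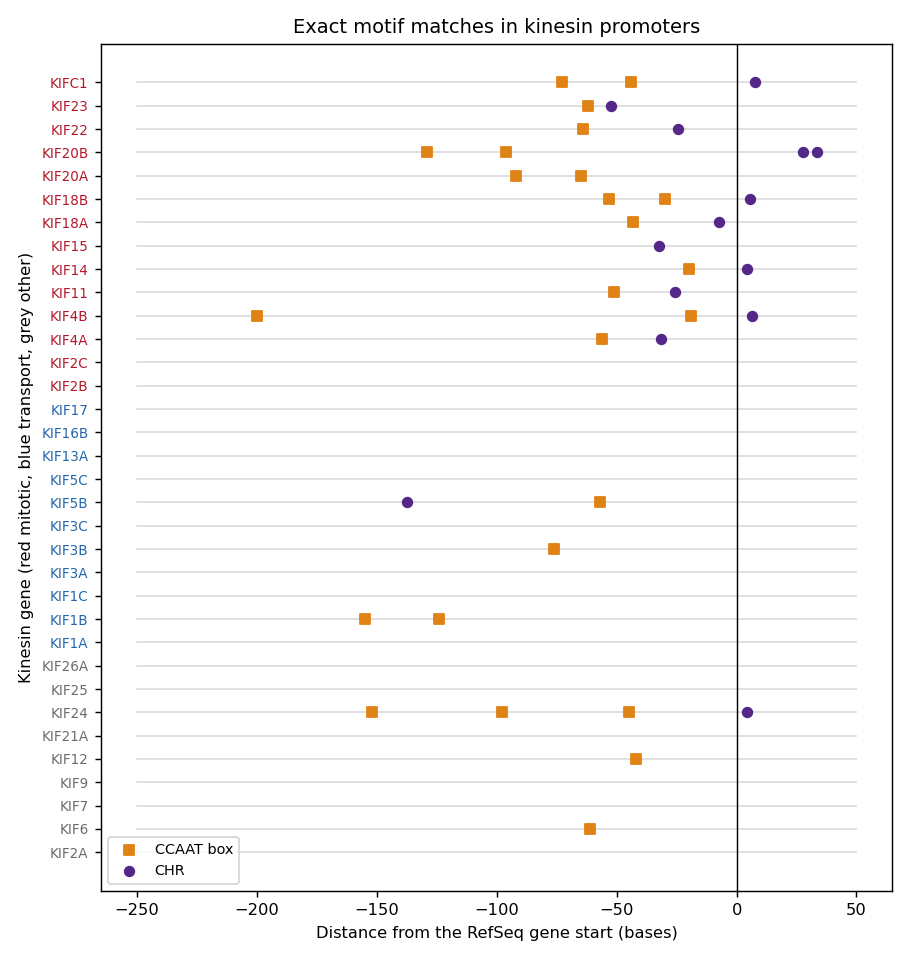
Exact CHR (circles) and CCAAT box (squares) matches on either strand, plotted by distance in bases from the RefSeq gene start (vertical line) for 34 kinesin genes. Gene names are red for mitotic, blue for transport and grey for other kinesins, and 11 of 14 mitotic rows carry a CHR match against 1 of 11 transport rows.

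Mitotic kinesins held the largest share of the kinesin FPKM in these cells, a ranking that in the control library depends on division by gene length. In raw counts the transport class had 36304 and the mitotic class 33893 in control cells. In SETDB2 cells the raw counts were 38303 and 39401. Per length, mitotic kinesins made up 53.5% of the summed kinesin FPKM in control cells and 55.8% in SETDB2 cells, and transport kinesins 35.4% and 34.1%. FPKM are counts per kilobase of gene length scaled to library size, and they are used here wherever levels of different genes are set side by side. The highest level of all 42 genes belonged to a transport motor, KIF5B, the ubiquitous heavy chain of conventional kinesin, at 57.0 FPKM in control and 66.3 FPKM in SETDB2 cells. It was followed in the SETDB2 library by KIF20A at 41.7, KIFC1 at 37.2 and KIF2C at 30.9, all mitotic. All 12 mitotic members that passed the count filter stood at 6.0 FPKM or above in both libraries, with KIF15, a spindle motor that can stand in for Eg5, the lowest at 6.0 and 6.8. The order of the levels hardly differed between libraries, with a Spearman correlation of 0.995 across the 42 genes, which are not replicates.

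Of the 42 genes, 33 passed a filter of 50 counts over both libraries together and 1 CPM (a count scaled to library size, after TMM scaling) in the higher one, and the account of ratios rests on those. The 9 others were KIF2B and KIF4B of the mitotic class, KIF1A, KIF5C and KIF17 of the transport class, and KIF6, KIF19, KIF25 and KIF26A. KIF1A, KIF2B and KIF19 were listed at 0 in both libraries. KIF5C and KIF1A are neuronal motors, and KIF5C had 13 and 12 counts. KIF4B, an intronless retrocopy of KIF4A, had 15 and 17 counts, and 95.47% of its 75-base pieces were found in no other gene, the rest lying mostly in KIF4A. KIF25, a minus-end motor, had 9 and 27 counts, and KIF26A 0 and 5.

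**Figure D2:**
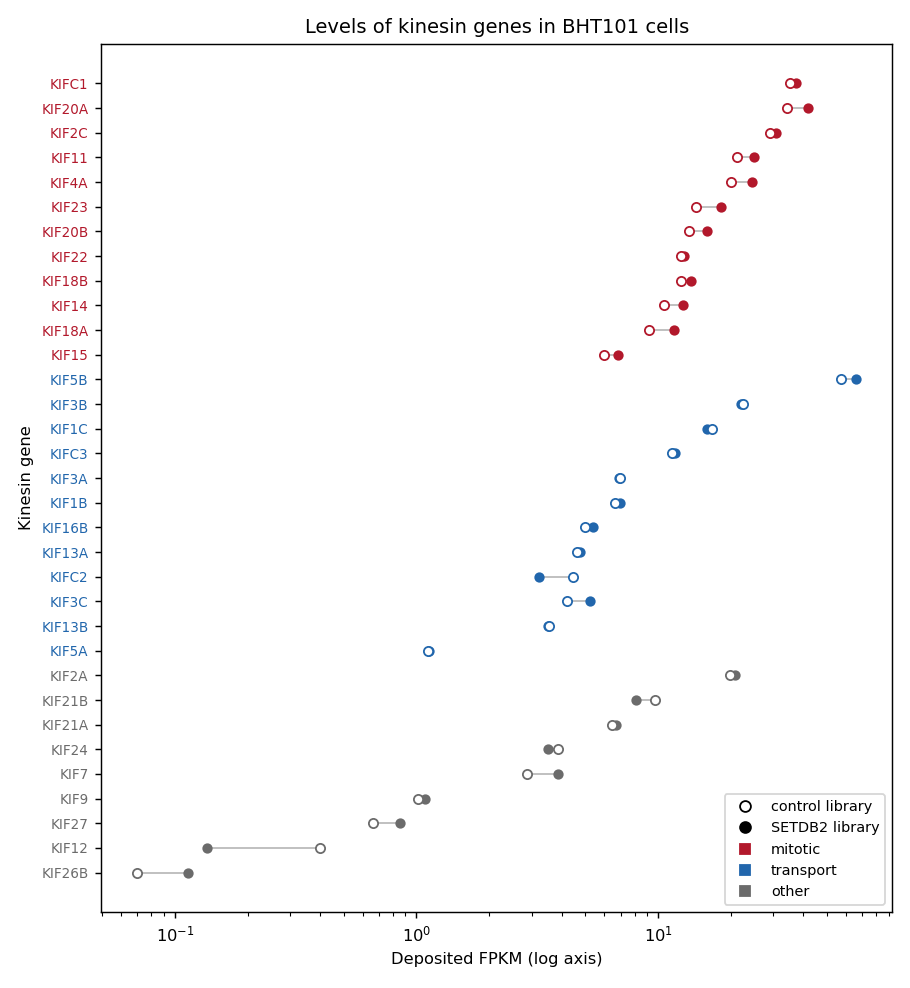
Deposited FPKM on a log axis for the 33 kinesin genes that passed the count filter, with open circles for the control and filled circles for the SETDB2 library, 1 library each. KIF5B lies farthest right at 57.0 and 66.3 FPKM, and the 12 mitotic genes (red) lie between 6.0 and 41.7.

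Mitotic kinesins were higher in the SETDB2 library by small amounts that shared a direction. All 12 measured members lay above 0 in log2 ratio, where 50.4% of the 14518 genes kept did. That count depends on the class list, since KIF24, placed among the other kinesins but mitotic in an alternative list, was at -0.14. The interval excluded equality on the higher side for 11 of the 12, against 26.3% of all genes kept and 33.5% of the 8653 genes with 1000 counts or more over both libraries. The median log2 ratio of the 12 was 0.24, with a range of 0.02 to 0.33, and that of all genes kept was 0.00 (quartiles -0.17 and 0.15). No mitotic kinesin was 2-fold higher, a size that 1.07% of all genes kept reached. Added up, their counts were 33893 (control) and 39401 (SETDB2), 1.16-fold higher (log2 ratio 0.21, interval 0.19 to 0.23). In bulk RNA, more cells in division and more transcript per dividing cell cannot be told apart.

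Motors of the central spindle and cytokinesis had log2 ratios from 0.25 to 0.33. KIF23, the motor subunit of centralspindlin (chr15:69414246-69448427), had 3199 counts in control and 4048 in SETDB2 cells (log2 ratio 0.33, interval 0.27 to 0.40). KIF20A, or MKLP2, which brings the Aurora B complex to the central spindle (chr5:138178719-138187715), had counts of 4563 and 5573 (log2 ratio 0.28, interval 0.23 to 0.34). It shares 5.05% of its exonic bases with genes on the opposite strand, BRD8 (3796 and 4031 counts) and CDC23 (2691 and 2834 counts). KIF20B, a motor of late cytokinesis, had counts of 3102 and 3709 (log2 ratio 0.25, interval 0.18 to 0.32). These are the kinesin-6 family, whose summed counts were 10864 and 13330 (log2 ratio 0.29, interval 0.25 to 0.33). With the GC trend of all genes removed, as described further on, KIF20B moved to 0.13. KIF4A, which carries the microtubule bundler PRC1 to the central spindle (chrX:70290090-70420832), had counts of 3075 and 3759 (log2 ratio 0.28, interval 0.21 to 0.35). KIF14, which binds citron kinase at the midbody, had counts of 2602 and 3112 (log2 ratio 0.25, interval 0.18 to 0.33).

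Motors of spindle assembly and chromosome alignment spread over the whole range. KIF18A, which damps chromosome movement at the metaphase plate (chr11:28020620-28108308), had counts of 1448 and 1829 (log2 ratio 0.33, interval 0.23 to 0.43). KIF11, or Eg5, which slides spindle microtubules apart, had counts of 3483 and 4096 (log2 ratio 0.23, interval 0.16 to 0.29). KIF15 had counts of 1073 and 1218 (log2 ratio 0.18, interval 0.06 to 0.30). KIF18B, which shortens astral microtubules, was closer to equality at 1956 and 2163 counts and 0.14 (0.05 to 0.23). Smaller ratios belonged to KIF2C, the centromeric depolymerase MCAK (3577 and 3809 counts, 0.08, 0.02 to 0.15), and KIFC1, the minus-end motor that clusters spindle poles (3976 and 4207 counts, 0.07, 0.01 to 0.14). KIF22, the chromokinesin Kid (chr16:29790719-29805385), had the smallest ratio of the 12 at 0.02, with 1824 and 1861 counts, and its interval of -0.07 to 0.12 included equality. KIF22 shares 13.01% of its exonic bases with AC009133.4 on the opposite strand and KIFC1 12.68% with RPL12P1, genes with at most 1 count in either library. Before any allowance for GC content, the interval of KIF23, the highest of the 12, lay wholly above those of KIF22, KIFC1, KIF2C and KIF18B. With the GC trend removed, KIF23 was at 0.28, KIF22 at 0.13, KIFC1 at 0.17, KIF2C at 0.11 and KIF18B at 0.24.

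A rule of at least 25% higher, or at least 20% lower, with an interval excluding equality took 2 of the 12 mitotic kinesins as higher, KIF23 and KIF18A at 1.26-fold each. Of all genes kept, 7.74% passed that rule on the higher side and 10.5% on the lower side. Over the whole family 4 genes passed it as higher, with KIF7 and KIF26B, and 2 as lower, KIFC2 and KIF12. KIF23 and KIF18A sat just past the limit, and with total counts in place of TMM scaling both fell short of it. KIF4A and KIF20A, at 1.22-fold each, were the nearest mitotic genes below.

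Transport kinesins lay around equality. Of the 12 that passed the count filter, 7 lay above 0 and 5 below, with a median log2 ratio of 0.02. None was 25% higher by the rule above, and 1, KIFC2, was 20% lower. The interval excluded equality on the higher side for 2 (KIF5B and KIF3C) and on the lower side for 2 (KIF1C and KIFC2), and 24.7% of all genes kept were lower in that sense. Their summed counts of 36304 and 38303 differed by 0.07 on the log2 scale (interval 0.05 to 0.09), but KIF5B alone carried that difference. Without it the sums of 24970 and 25139 were even (interval -0.02 to 0.03).

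KIF5B (chromosome 10) had counts of 11334 and 13164 (log2 ratio 0.21, interval 0.17 to 0.25). It made up 98.0% and 98.3% of the summed FPKM of the conventional kinesin heavy chains, and the neuronal KIF5A, at 236 and 238 counts, had a log2 ratio of 0.01 (-0.26 to 0.27). KIF3A and KIF3B, which pair as the anterograde motor of cilia, were near equality at 1622 and 1602 counts and at 4634 and 4563 counts. KIF3C, the alternative partner of KIF3A, had counts of 912 and 1128 (log2 ratio 0.30, interval 0.17 to 0.43). That interval lay above the intervals of KIF3A (-0.12 to 0.08) and KIF3B (-0.09 to 0.03). Its share of the summed FPKM of the kinesin-2 motors was 12.5% (control) and 15.2% (SETDB2).

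Of the other vesicle and organelle motors that passed the filter, KIFC2 had the largest ratio in size. KIF1C, a carrier of dense-core vesicles and integrins, had counts of 4835 and 4634 (log2 ratio -0.07, interval -0.13 to -0.01). KIF1B, a carrier of mitochondria and vesicle precursors, had counts of 3964 and 4151 (log2 ratio 0.06, interval -0.003 to 0.12). The endosome motors KIF13A and KIF16B had log2 ratios of 0.03 (-0.07 to 0.13) and 0.10 (-0.01 to 0.21), and the vesicle motor KIF13B -0.03 (-0.14 to 0.08). KIFC3, a minus-end motor of apical vesicles and adherens junctions, had counts of 3703 and 3820 (log2 ratio 0.04, interval -0.03 to 0.10). KIFC2, a minus-end motor of neurons, was 1.38-fold lower with counts of 667 and 484 (log2 ratio -0.47, interval -0.64 to -0.30). Its exons share 17.79% of their bases with FOXH1 on the opposite strand, which had 0 and 4 counts.

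**Figure D3:**
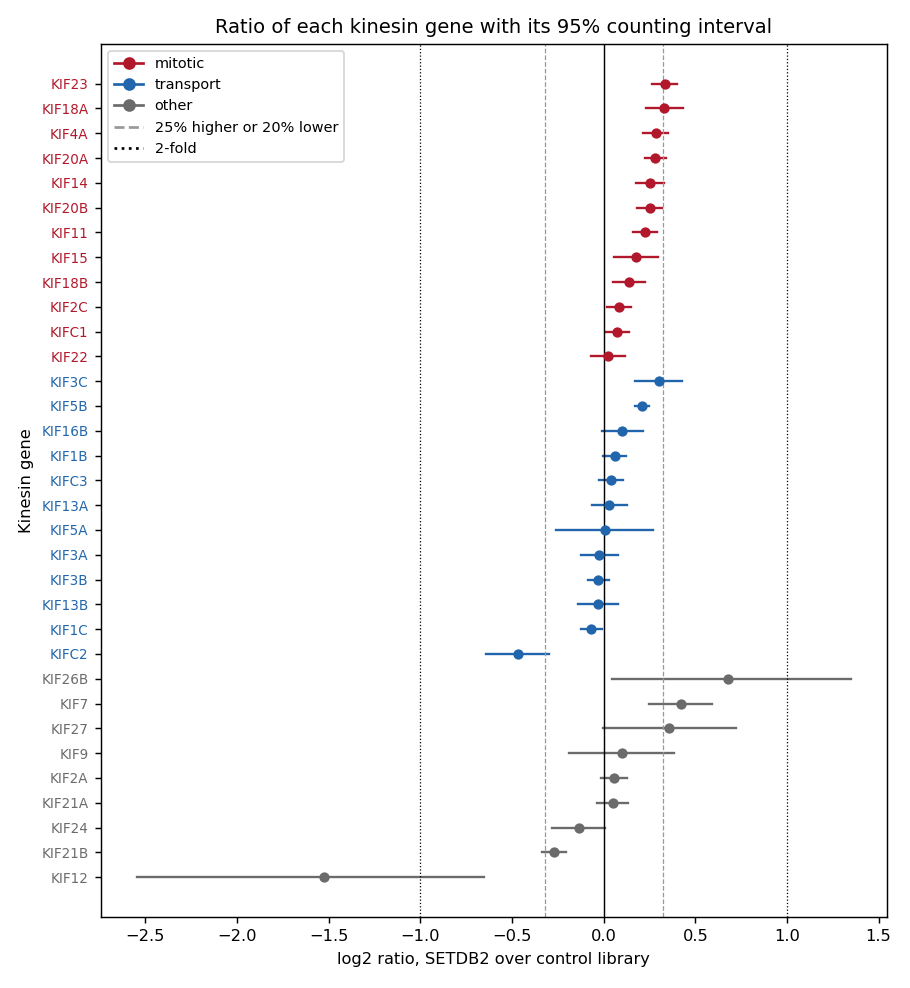
Log2 ratio of the SETDB2 over the control library for 33 kinesin genes, with bars for the 95% interval of counting error. All 12 mitotic genes (red) lie between 0.02 and 0.33, the 12 transport genes (blue) between -0.47 and 0.30, and dashed lines mark 25% higher or 20% lower and dotted lines 2-fold.

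The median of the mitotic class exceeded that of the transport class by 0.22 on the log2 scale. Genes are not replicates of a condition, so this difference carries no test. Before any allowance for GC content the classes overlapped, since KIF3C stood between KIF18A and KIF4A, and KIF5B between KIF11 and KIF15.

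The remaining kinesins went in both directions. Of 9 that passed the filter, 6 lay above 0 and 3 below. KIF7, a regulator of Hedgehog signalling at the cilium tip, had counts of 483 and 649 (log2 ratio 0.42, interval 0.25 to 0.59) or 1.34-fold higher. It shares 11.78% of its exonic bases with TICRR, a replication gene on the opposite strand that had 826 and 737 counts, and the strand setting of the counting is not given. Its paralog KIF27 had 115 and 148 counts and an interval of -0.004 to 0.72, and 80.98% of its 75-base pieces were found in no other gene. KIF26B, an atypical kinesin of cell polarity, had counts of 34 and 55 (log2 ratio 0.68, interval 0.04 to 1.35). KIF21B, which restrains microtubule growth in neurons and lymphocytes, had counts of 4009 and 3336 (log2 ratio -0.27, interval -0.34 to -0.20), while its paralog KIF21A had counts of 2200 and 2286 (log2 ratio 0.05, interval -0.04 to 0.13).

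KIF12, a kinesin of kidney and liver epithelium, was the single member past 2-fold, with counts of 41 and 14 (log2 ratio -1.52, interval -2.55 to -0.65). At least 2-fold lower were 1.61% of all genes kept. KIF12 passed the count filter only because its counts were uneven. The depolymerases KIF2A, of spindle poles and neurites, and KIF24, which holds back cilium formation at the mother centriole, had 3204 and 3350 counts and 797 and 728 counts, and the intervals of both included equality. KIF2A shares 8.97% of its exonic bases with IPO11 on the same strand. KIF9, a kinesin of motile cilia, had 200 and 215 counts (log2 ratio 0.10, interval -0.19 to 0.38). It shares 17.91% of its exonic bases with KIF9-AS1 (97 and 97 counts) and KLHL18 (1622 and 1492 counts) on the opposite strand.

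CENPE and STARD9 are kinesins by sequence whose names the rule did not match. CENPE, the kinetochore motor that brings chromosomes to the metaphase plate, had counts of 3125 and 4186 (log2 ratio 0.42, interval 0.35 to 0.48), above every mitotic member of the class. STARD9, a centrosomal kinesin, had counts of 724 and 558 (log2 ratio -0.38, interval -0.54 to -0.22), or -0.34 with the GC trend removed. It lay below every mitotic member, and no class list held it.

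The ratios moved with the GC content of the transcripts, within the mitotic class as in all genes. Across 10234 genes with at least 500 counts the Spearman correlation of log2 ratio with GC content was -0.41, and across the 12 mitotic kinesins it was -0.62. These points share the same pair of libraries, and genes are not replicates. The 4 mitotic kinesins with the smallest ratios were KIF22 at 58.9% GC, KIFC1 at 57.9%, KIF2C at 50.4% and KIF18B at 58.4%, whereas KIF18A was at 37.0% and KIF20B at 34.2%. In the GC range of 57 to 59% the median log2 ratio of all genes kept was -0.10, below KIF22 at 0.02, KIFC1 at 0.07 and KIF18B at 0.14. In the range of 34 to 43% it was 0.09, below KIF15 at 0.18 and the other 5 mitotic kinesins there. Of the transport motors in that range, KIF5B at 39.1% GC was at 0.21, above KIF15, and KIF3A at 37.8% was at -0.02.

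With the GC trend of all genes subtracted, all 12 mitotic kinesins still lay above 0, from 0.11 to 0.29, and 9 of 12 transport kinesins did. The mitotic median was 0.17, where that of all genes kept was 0.01. The shares of all genes kept above 0 or past the size rule were not computed after this subtraction. The median of the transport class was then 0.04, and the difference between the classes 0.13 in place of 0.22. Transport kinesins then ranged from -0.28 to 0.37, so the classes still overlapped. KIFC3 moved from 0.04 to 0.20, above the mitotic median, and KIF3A from -0.02 to -0.12. KIF20A led the mitotic class at 0.29, followed by KIF23 at 0.28 and KIF4A at 0.27, and KIF22 moved to 0.13. KIF20B and KIF14 moved to 0.13 and 0.16, below KIF18B at 0.24 and KIFC1 at 0.17. No mitotic kinesin was then 25% higher, and the 3 kinesins that were comprised the transport motor KIF3C, which moved from 0.30 to 0.37, with KIF7 and KIF26B. KIFC2 moved to -0.28 and was then not 20% lower, while KIF1C went from -0.07 to 0.0007. The part that library preparation played in the GC trend was not tested.

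**Figure D4:**
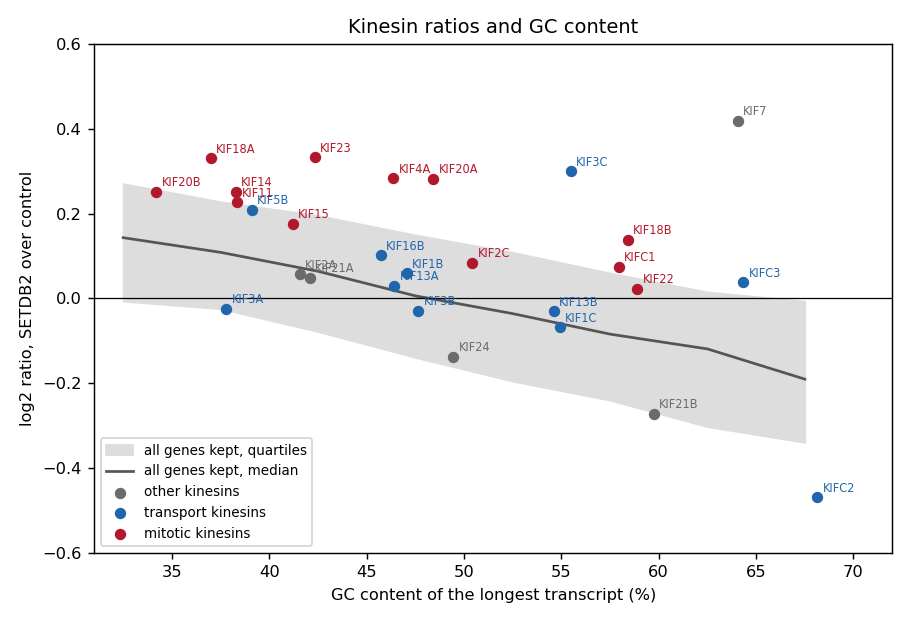
Log2 ratio of the SETDB2 over the control library against GC content of the longest transcript in percent, for the 28 kinesin genes with 1000 counts or more over both libraries. The line and band show the median and the quartiles of all genes kept in steps of GC content, and all mitotic genes (red) lie above the line.

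Partners of the mitotic kinesins went the same way by similar amounts. Of 17 measured, 15 lay above 0, with a median log2 ratio of 0.19, or 0.19 with the GC trend removed. Of all genes kept, 50.4% lay above 0 and 7.74% were at least 25% higher. Of the 17, 3 were at least 25% higher and none at least 20% lower with an interval excluding equality. RACGAP1, which joins KIF23 in centralspindlin, had counts of 4479 and 5402 (log2 ratio 0.26, interval 0.21 to 0.32). BIRC5, INCENP, AURKB and CDCA8, the Aurora B complex that KIF20A moves, differed among themselves at 0.15, 0.03, 0.03 and 0.21. The list also held AURKA, the spindle pole kinase, which stood apart at 1.23 (1.18 to 1.28), and after it HMMR at 0.38 (0.31 to 0.45), KNSTRN at 0.32 (0.21 to 0.44) and PLK1, the mitotic kinase that KIF20A binds, at 0.30 (0.23 to 0.37). PRC1, the partner of KIF4A, had 31 counts in each library and did not pass the filter, and the overlapping gene AC068831.7 on the same strand had 248 and 292.

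Of 16 light chains and cargo adaptors of the transport kinesins measured, 6 lay above 0 and 10 below, where 50.4% of all genes kept lay above 0. Their median log2 ratio of -0.12 moved to -0.03 with the GC trend removed. By the rule of 25% higher or 20% lower, 0 were higher and 2 lower, where 10.5% of all genes kept were lower. The mitochondrial adaptor RHOT2 had counts of 2748 and 2054 (log2 ratio -0.43, interval -0.51 to -0.34). The scaffolds MAPK8IP2 and MAPK8IP1 were at -0.31 (-0.44 to -0.17) and -0.28 (-0.52 to -0.05). KIFAP3, which binds KIF3A and KIF3B, was at 0.07 (-0.05 to 0.19). In the list of cytoplasmic dynein and dynactin, the motor of the opposite direction, 14 of 21 lay above 0, against 50.4% of all genes kept. The median of the list was 0.07, or 0.06 with the GC trend removed, and 2 were at least 25% higher and none 20% lower. That count of 2 is a share near the 7.74% of all genes kept. It held DYNLT3 and DYNC1I1, and the latter passed the count filter only because its 23 and 43 counts were uneven (log2 ratio 0.88, interval 0.13 to 1.69). Next to it in size were the light chains DYNLT3 at 0.37 and DYNLL1 at 0.28, and DYNC1LI1 at 0.18. Of 13 tubulins, the track of both motors, 10 lay above 0 with a median of 0.10, against 50.4% of all genes kept above 0. With the GC trend removed the tubulin median moved to 0.21, where that of the mitotic kinesins was 0.17. By the rule above 3 were at least 25% higher, against 7.74% of all genes kept, and none 20% lower. The largest ratios were those of TUBD1 at 0.44, TUBB2A at 0.40, TUBB2B at 0.33 and, on the other side, TUBE1 at -0.25.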

How the data were processed

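RNA sequencing covered 1 control and 1 SETDB2 library. The authors deposited raw read counts per gene and FPKM values, per the file headers one table of each per library. Per the submitters' processing notes, the tools were TopHat2 2.0.9, Bowtie2 2.0.6, Cuffdiff 2.1.1 and Cufflinks 2.1.1, with no role stated. For the counting program, strand setting and build the sources used here give nothing. The gene coordinates are those of GENCODE 29 (GRCh38). Counts were scaled over the whole table by the TMM method (edgeR 4.0.16 in R 4.3.3), with DESeq2 1.42.0 size factors as an alternative; neither tool's test was run. Log2 ratios used a prior count of 0.5. Intervals are exact Clopper-Pearson intervals (95%) of the 2 counts given the scaled library sizes; reads carry no molecular identifiers, so they cover counting error only. The count filter, fold rules and motif letters are stated in the report. The GC trend was a lowess curve (span 0.3, statsmodels 0.14.6) over genes with at least 500 counts. The ratio and interval code was tested on simulated data. Members, classes, lists and rules were chosen with earlier results of these data known; all members are accounted for, and of each partner list the 4 largest ratios are named, besides direct partners of the kinesins described, CENPE and STARD9. The GC ranges compared were chosen after the values were seen.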

Additional observations from a re-analysis of the deposited data

How the results depend on the processing

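The alternatives were other scalings, count filters, prior counts, units and class lists. Ratios of the 33 kinesin genes stayed within their counting intervals under DESeq2 size factors, total counts, a prior count of 2, both other filters and the deposited FPKM. With the GC trend removed, 11 left that range with the same sign and KIF1C turned from -0.07 to 0.0007. KIF2A (0.06 to -0.0046), KIF21A (0.05 to -0.0075) and KIF13B (-0.03 to 0.03), whose intervals included equality, also changed sign. The median of mitotic kinesins was 0.17 with the GC trend removed, and the difference between the classes 0.13. With KIF2A and KIF24 counted as mitotic and KIF21A and KIF21B as transport, these values were 0.20 and 0.18. In that list not all mitotic members lay above 0, since KIF24 was at -0.14. With the GC trend removed, KIF24 was at -0.12 and KIF2A at -0.0046. The transport median was -0.0094 without a filter. Genes past 2-fold numbered 2 without a filter, 0 with a minimum of 200 counts over both libraries and 2 at 1.5-fold, against 1. Genes at least 25% higher numbered 2 with total counts and 1 at 1.5-fold, against 4, as KIF23 and KIF18A fell just short with total counts. With the GC trend removed 3 were higher, with KIF3C gained and KIF23 and KIF18A lost. Genes at least 20% lower numbered 1 with that minimum, 1 with the GC trend removed and 1 at 1.5-fold, against 2. Fewer genes pass a stricter filter or fold by construction. No paired analysis was possible because each group held 1 library. Counting intervals of KIF23, KIF18A, KIF7, KIF26B and KIFC2 spanned the line of 25% higher or 20% lower, so depth limits those calls. Variation between cultures is unknown for all.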
